A study of Mus musculus with 6 samples.

Results

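The strongest mitotic RBPJ peaks are the 432 sites of highest score among the 3227 peaks listed for anti-RBPJ chromatin immunoprecipitation and sequencing (ChIP-seq) of mitotic F9 cells, a mouse embryonal carcinoma line from a testicular teratoma. They were selected on the measured peak score, with 13 as the minimum, and make up 13.4% of the mitotic list. The study compared cycling F9 cells, labelled as 95% interphase and 5% mitosis, with F9 cells arrested in mitosis with nocodazole, and both immunoprecipitations used the same custom-made antibody against RBPJ. Of the 6 libraries of the series, 2 gave the peak lists described below, namely replicate 1 of each immunoprecipitation. The asynchronous list has 5206 peaks. The second immunoprecipitation of each population was not analysed here, so each population stands as 1 list and no test between populations was made. The intervals given are 95% intervals that cover counting error only, and they treat neighboring peaks as independent.

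RBPJ is the DNA-binding protein of the Notch pathway. Cleavage of a Notch receptor releases its intracellular domain, which joins RBPJ and a Mastermind coactivator at target genes such as Hes1, and without it RBPJ is bound by corepressors. Most transcription factors leave the condensed chromosomes of mitosis, and factors that stay have been discussed as bookmarks of genes for the next interphase. CTCF, whose motif was searched for below beside that of RBPJ, is a zinc finger protein that organizes chromatin loops.

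The following mm9 sequences show the kinds of site among the strongest mitotic peaks. All are the plus strand from 5′ to 3′. The first 4 are from peaks in or beside repeated sequence, and capitals in the Tcte2 peak mark the CTGTG unit of a simple repeat, which occurs 28 times in 203 bp.
45S ribosomal RNA locus, chr17:39980174-39980376: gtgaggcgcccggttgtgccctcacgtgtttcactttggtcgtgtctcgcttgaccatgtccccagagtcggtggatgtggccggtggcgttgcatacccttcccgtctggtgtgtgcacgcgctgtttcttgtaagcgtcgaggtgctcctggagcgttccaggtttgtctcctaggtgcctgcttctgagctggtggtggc
Pisd-ps2, chr17:3082281-3082483: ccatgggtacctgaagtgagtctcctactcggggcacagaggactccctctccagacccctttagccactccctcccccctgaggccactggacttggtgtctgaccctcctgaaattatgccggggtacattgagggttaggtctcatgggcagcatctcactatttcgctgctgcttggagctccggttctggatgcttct
Dux, chr10:57686672-57686874: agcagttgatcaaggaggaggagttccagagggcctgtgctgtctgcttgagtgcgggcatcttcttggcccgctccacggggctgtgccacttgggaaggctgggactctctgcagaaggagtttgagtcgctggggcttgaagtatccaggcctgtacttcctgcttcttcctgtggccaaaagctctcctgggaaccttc
Tcte2, chr17:13744981-13745183: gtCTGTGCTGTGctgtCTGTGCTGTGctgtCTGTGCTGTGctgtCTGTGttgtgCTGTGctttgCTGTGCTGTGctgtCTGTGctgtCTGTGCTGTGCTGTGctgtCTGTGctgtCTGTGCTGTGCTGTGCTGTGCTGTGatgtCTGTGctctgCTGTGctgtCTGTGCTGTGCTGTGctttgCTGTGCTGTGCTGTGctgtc

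The next peaks lie in sequence with no other copy found. The Gipc1 and Timm13 peaks are the highest scoring of these with an asynchronous center at nearly the same position, and capitals mark TTCCCA, the core of the RBPJ motif, on either strand, and in Gipc1 also a longer CTCF motif (CCA, any 2 bases, AG, any 2 bases, GGC). Neither holds the full RBPJ motif. In the others capitals mark the full RBPJ motif, TTCCCACA or TTCCCACG, and in Atp5k also a CTCF core, TAGGGGGC or CAGGGGGC, on either strand.
Gipc1 intron, chr8:86186293-86186495: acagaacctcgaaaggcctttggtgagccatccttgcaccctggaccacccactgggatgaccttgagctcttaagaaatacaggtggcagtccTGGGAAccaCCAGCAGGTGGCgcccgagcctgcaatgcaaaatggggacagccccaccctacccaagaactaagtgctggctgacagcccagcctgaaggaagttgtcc
Timm13, chr10:80363592-80363794: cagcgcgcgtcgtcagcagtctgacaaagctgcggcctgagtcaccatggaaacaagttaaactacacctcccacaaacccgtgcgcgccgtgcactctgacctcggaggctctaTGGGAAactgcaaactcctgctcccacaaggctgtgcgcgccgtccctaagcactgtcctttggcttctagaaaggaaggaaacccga
Casc1, chr6:145159389-145159591: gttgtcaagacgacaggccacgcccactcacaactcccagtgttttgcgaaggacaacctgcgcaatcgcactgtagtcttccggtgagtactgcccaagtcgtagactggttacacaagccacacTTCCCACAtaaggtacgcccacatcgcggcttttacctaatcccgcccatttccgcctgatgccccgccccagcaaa
Rara, chr11:98798668-98798870: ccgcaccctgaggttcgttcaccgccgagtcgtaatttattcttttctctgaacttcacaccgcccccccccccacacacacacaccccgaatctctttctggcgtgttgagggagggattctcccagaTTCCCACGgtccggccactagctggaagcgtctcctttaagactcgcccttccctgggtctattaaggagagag
Rpl36a, chrX:131120157-131120359: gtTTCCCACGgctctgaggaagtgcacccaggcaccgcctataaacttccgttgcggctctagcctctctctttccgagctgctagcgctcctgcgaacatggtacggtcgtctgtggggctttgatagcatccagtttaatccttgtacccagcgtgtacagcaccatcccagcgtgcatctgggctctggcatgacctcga
Ankrd9, chr12:112217523-112217725: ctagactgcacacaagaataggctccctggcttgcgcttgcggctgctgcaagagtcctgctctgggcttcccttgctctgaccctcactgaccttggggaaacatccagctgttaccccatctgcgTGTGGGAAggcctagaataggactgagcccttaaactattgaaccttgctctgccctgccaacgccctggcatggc
Atp5k, chr5:108863432-108863634: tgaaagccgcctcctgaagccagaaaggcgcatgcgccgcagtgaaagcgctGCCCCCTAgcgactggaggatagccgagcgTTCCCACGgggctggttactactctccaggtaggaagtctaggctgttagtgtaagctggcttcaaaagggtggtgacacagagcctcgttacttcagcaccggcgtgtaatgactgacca
Hes1, chr16:30065299-30065501: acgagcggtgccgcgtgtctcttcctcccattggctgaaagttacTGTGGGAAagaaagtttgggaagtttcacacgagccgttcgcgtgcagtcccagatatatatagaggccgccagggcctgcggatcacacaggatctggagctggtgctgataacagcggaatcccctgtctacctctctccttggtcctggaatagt

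The scores of these peaks ran from 13.1 to 282.5 with a median of 13.8. Scores of the mitotic list were whole multiples of 0.728, so that if 1 step is 1 read, the lowest of the strongest peaks held 18 reads, the median 19 and the highest 388. The minimum separates neighboring steps. There were 135 peaks at 13.1, just inside, and 229 peaks at 12.4 or 17 reads, just outside, and a difference of 1 read is within counting error. Scores were not compared in height with those of asynchronous cells, where 1 step was 0.422.

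**Figure D1:**
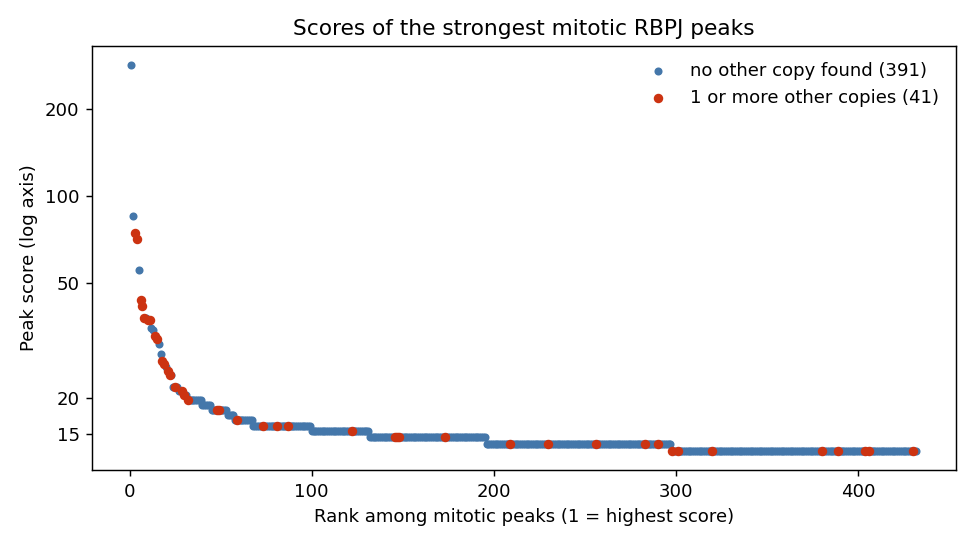
Score of each of the 432 strongest mitotic peaks (log axis) against its rank in the mitotic list. Red points are the 41 peaks with another copy in the genome at 90% identity over 90% of the peak, of which 11 are among the 20 highest. The top peak and the CTGTG peaks of Tcte2 and Gm9880 are not among the 41. The long shelf at the right is the peaks at 13.1 and 13.8.

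The highest scoring peaks lay largely in repeated sequence. The top peak, chr17:39980174-39980376 with a score of 282.5, lies at the locus of the 45S pre-ribosomal RNA, the precursor of 18S, 5.8S and 28S ribosomal RNA. The GENCODE annotation has no ribosomal gene there, and its nearest start was the pseudogene AY036118 at 5497 bp. No asynchronous center was listed within 1091678 bp. Sequence similar to the top peak at 80% identity over 80% of its length occurred at 4 other places in mm9, and at 90% over 90% at none. These counts are of places in the mm9 assembly and do not give the number of copies of this locus in F9 cells.

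The annotation table published with the study names a large-subunit ribosomal RNA repeat at 5 of the strongest peaks. The highest of these, chr11:108873205-108873407 with a score of 55.3, had an asynchronous center 79 bp away with a score of 54.5. The others were a peak 284415 bp upstream of Pxmp3 (43.7), a peak in an intron of Jarid2 (37.9), a peak at Filip1l (19.7) and a peak nearest the microRNA gene mmu-mir-689-2 (13.8). Filip1l had an asynchronous center at the same base. The peaks near Pxmp3 and mmu-mir-689-2 had none within 100 kb, and the nearest to the Jarid2 peak was 22034 bp away. Sites with ribosomal RNA sequence were thus found both with and without an asynchronous peak.

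The second highest peak, chrX:166430591-166430793 with a score of 85.2, lay in an intron of Mid1, a ubiquitin ligase gene, 5821 bp from the nearest start, that of Gm15247. It lay 16254 bp from an assembly gap. No other copy at 80% identity over 80% of its length was found, but 38.1% of its windows of 36 bases occurred elsewhere, and the nearest asynchronous center was 6596 bp away with a score of 33.3.

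The Pisd family followed. Pisd encodes the mitochondrial phosphatidylserine decarboxylase, which makes phosphatidylethanolamine, and Pisd-ps1 and Pisd-ps2 are pseudogene copies of it. Peaks were found in Pisd-ps2 on chromosome 17 (score 74.3), in Pisd-ps1 on chromosome 11 (70.6), in an intron of Pisd on chromosome 5 (32) and in the neighboring pseudogene Gm2420 (26.2). The sequence of the Pisd-ps2 peak recurred on chromosome 11 at 94.6% identity and that of the Pisd-ps1 peak on chromosome 17 at 97% identity. The peaks lay 1088 bp and 1080 bp away from these matching positions. The nearest asynchronous center to the Pisd-ps2 peak was 2075 bp away, and those to the other 3 peaks were over 100 kb away.

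Other peaks of the leading 20 fell into families and simple repeats. Dux, a homeobox gene of the cleavage-stage embryo that lies in a tandem array, had a peak 499 bp upstream of its start (score 37.9) with an asynchronous center 1 bp away (score 27.0), and 4 other copies of the peak sequence were found. In introns of Tcte2, a testis gene of the t complex, peaks of 34.2 and 28.4 lay in CTGTG repeats, each with an asynchronous center within 33 bp. Another CTGTG peak, nearest Gm9880 (34.9), lay 99 bp from an assembly gap and had no asynchronous center within 100 kb. On chromosome 1 a peak of 41.5, nearest the microRNA gene AC109145.1 at 13461 bp, had 1 other copy, on chromosome 19, and its nearest asynchronous center was 110602 bp away. On chromosome 8, peaks near 4930467E23Rik and 2610005L07Rik both scored 37.1, with 5 and 24 other copies. A peak beside the vomeronasal receptor pseudogene Vmn1r-ps60 scored 32.8, with an asynchronous center 18 bp away.

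Away from repeats, an intron of Gipc1, which encodes a PDZ-domain scaffold protein, held a peak of 30.6 with an asynchronous center 8 bp away. The Timm13 promoter, of a chaperone for import into mitochondria, held a peak of 25.5 with an asynchronous center 3 bp away. The asynchronous scores there were 43.1 and 26.2. No window of 36 bases in either peak occurred elsewhere in the genome.

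Multi-copy sequence was defined as another place in mm9 with at least 90% identity over at least 90% of the peak. By this definition 41 of the 432 peaks, or 9.49% (6.90 to 12.7), were multi-copy, against 4.21% of all 3227 mitotic peaks. Among the remaining 2795 mitotic peaks the share was 3.40% (2.76 to 4.14), and the difference was 6.09 percentage points (3.56 to 9.28). Of the 41, 10 had 1 other copy, 21 had 2 to 9 and 10 had 10 or more. The number of copies went up to 712, at a LINE-derived peak nearest Gm16811 with a score of 13.1. Some peaks described above as repeated sequence were not multi-copy by this definition. They were the top peak, the ribosomal repeat peaks other than that near Pxmp3, and the CTGTG peaks of Tcte2 and Gm9880. Yet 58.3% and 89.3% of the 36-base windows of the Tcte2 peaks, and 61.9% of those of the Gm9880 peak, occurred elsewhere.

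The multi-copy share changed steeply with score. It was 5.65% (3.32 to 8.89) of the 301 peaks from 13 to 15, 8.0% (3.52 to 15.2) of the 100 peaks from 15 to 20, and 51.6% (33.1 to 69.8) of the 31 peaks of 20 and above. An assembly gap lay within 100 kb of 14 of those 31 peaks, or 45.2% (27.3 to 64.0), of 2.0% and 2.66% of the peaks in the bands below them, and of 5.56% of all the strongest peaks against 1.82% of the remaining peaks. Without multi-copy peaks the gap shares were 2.30% and 1.56%, a difference of 0.746 points (-0.467 to 2.80). Reads with more than 1 best position were discarded by the authors. The part of repeats in these scores was not tested.

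Genes of the annotated type pseudogene were touched by 4 of the strongest peaks, or 0.926% (0.253 to 2.35), against 0.25% (0.101 to 0.515) of the remaining peaks. Of the 4, 3 were multi-copy, and without multi-copy peaks the shares were 0.256% and 0.185%, a difference of 0.0706 points with an interval that included 0 (-0.254 to 1.25). The peaks were at Gm2420 (26.2), Gm16026 (24.0), 9330133O14Rik (14.6) and Gm17138 (13.8). Gm16026 had 11 other copies and no asynchronous center within 33 kb, whereas 9330133O14Rik and Gm17138 had asynchronous centers 89 bp and 151 bp away. No annotated ribosomal RNA gene was touched. For 1 peak, of 14.6, the nearest start was that of n-R5s64, a 5S ribosomal RNA gene, at 10903 bp.

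**Figure D2:**
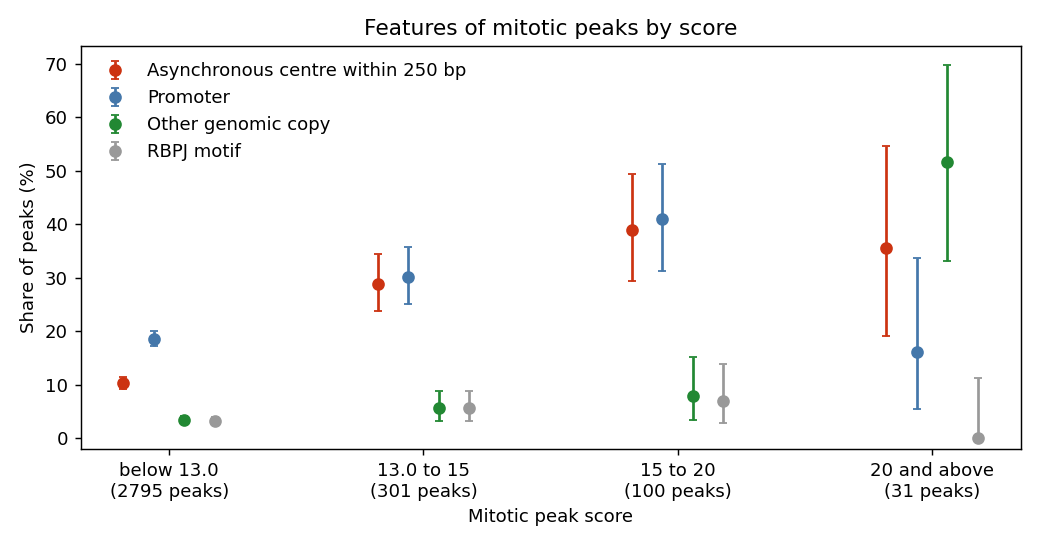
Share of mitotic peaks with each feature by score, with exact 95% intervals. The multi-copy share is 51.6% at scores of 20 and above, where the promoter share is 16.1% and no peak holds an RBPJ motif.

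An asynchronous peak center lay within 250 bp of 137 of the strongest mitotic peaks, or 31.7% (27.3 to 36.3), against 13.2% of all mitotic peaks. The share in the remaining peaks was 10.3% (9.20 to 11.5), a difference of 21.4 points (17.0 to 26.1). Without multi-copy peaks, which leaves in repeat peaks such as those of Tcte2 and Filip1l, the shares were 33.0% and 10.4%. The other strongest peaks were mostly far from any listed asynchronous center. Only 12 had a center between 250 bp and 1 kb away, 58 between 1 and 10 kb, 138 between 10 and 100 kb, and 87 farther. The lowest listed asynchronous score was 10.1, so a weaker asynchronous signal at these sites would not appear. The study instead compared read enrichment between the populations, a measure not used here, and called most mitotic sites common to both.

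By definition the paired centers lay no more than 250 bp apart. The median distance was 46.0 bp (quartiles 14.0 and 103), and 29 of 137, or 21.2%, were within 10 bp, against 12.2% of the 288 pairs of the remaining peaks, whose median was 49.0 bp. The asynchronous partner was among the 449 highest scoring asynchronous peaks for 48 of the 137 pairs, or 35.0% (27.1 to 43.6), and for 12.8% (9.21 to 17.3) of the pairs of the remaining peaks. In the opposite direction, 48 of those 449 asynchronous peaks, or 10.7% (7.99 to 13.9), had a strongest mitotic peak within 250 bp. The asynchronous list as a whole has 5206 peaks, and the 137 pairs shared no partner in it. Any mitotic peak lay within 250 bp of 18.9% of the 449 and of 8.16% of all 5206 asynchronous peaks.

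**Figure D3:**
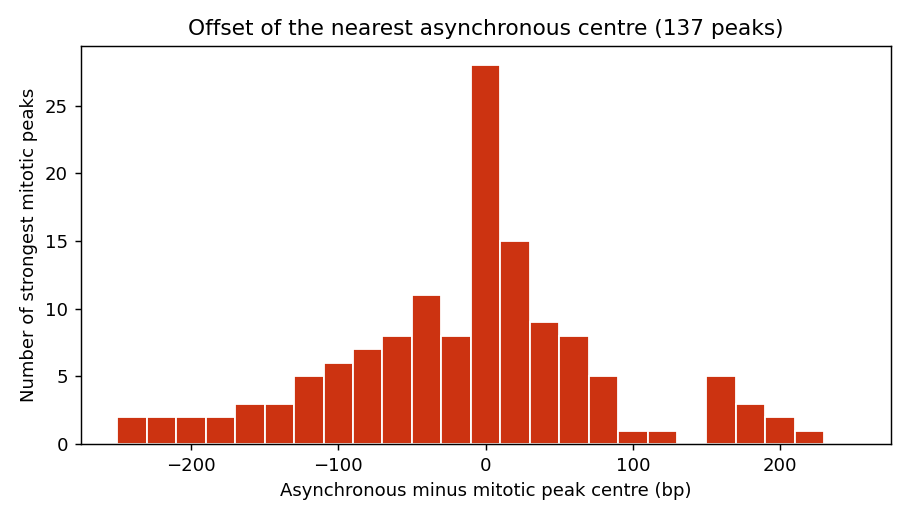
Position of the nearest asynchronous center relative to the mitotic center, in bp, for the 137 strongest mitotic peaks with a center within 250 bp (bins of 20 bp). The highest bin is the central one, and 29 pairs lie within 10 bp.

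The 10 highest scoring pairs were those of the chromosome 11 ribosomal repeat, Dux, both Tcte2 peaks, Vmn1r-ps60, Gipc1, Gm6483, Timm13, Pde6h and Cdk12. Gm6483, on chromosome 8, scored 26.9 with a partner of 28.7 at 32 bp and had 3 other copies. The Pde6h peak scored 21.8 with a partner of 20.7 at 10 bp and lay in a TG repeat 43754 bp from the gene. Cdk12, a kinase of the RNA polymerase II tail, scored 21.1 in its promoter with a partner of 32.9 at 11 bp. Of these 10, the promoter peaks were those of Dux, Timm13 and Cdk12.

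Promoters were the stretch that begins 1 kb before a transcript start and ends 100 bp after it, and they held 137 of the strongest peaks, or 31.7% (27.3 to 36.3), against 20.4% of all mitotic peaks. The remaining peaks were at promoters in 18.6% (17.2 to 20.1), a difference of 13.1 points (8.64 to 17.9). Introns held 26.2% of the strongest and 35.6% of the remaining peaks, a difference of -9.41 points (-13.7 to -4.72). The shares in exons (5.32% and 6.44%), at termination sites (4.86% and 4.04%), in distal promoters (8.33% and 8.09%) and in intergenic sequence (23.6% and 27.3%) had differences with intervals that included 0. Without multi-copy peaks the intergenic shares were 21.2% and 26.6%, and the difference of -5.40 points had an interval below 0 (-9.53 to -0.781). Among the 449 highest scoring asynchronous peaks, 37.4% (32.9 to 42.1) were at promoters.

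The promoter peaks lay upstream of the start in 115 cases and at or downstream of it in 22. The median position was -195 bp (quartiles -433 and -43.0), and 33 centers were within 100 bp of the start. The nearest start belonged to a protein-coding gene in 124 cases, and starts on both strands lay within 1 kb of 28 peaks. Of the strongest peaks with an asynchronous center within 250 bp, 43.1% were at promoters, and of those without one 26.4% were, 16.6 points apart (7.03 to 26.2). Over all 432 peaks, 393 different genes were nearest, 35 of them to 2 or more peaks, and the median distance to a start was 3459 bp against 7108 bp for the remaining peaks.

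At 76 promoters no asynchronous center was within 1 kb. The 10 highest scoring of these were at 6820431F20Rik (24.8), Gm16026 (24.0), Lmna, Camta1 and Cyp46a1 (18.2 each), Ankrd9 (17.5), and Mcf2l, Mrps31, Kcnk13 and Bcl11b (16.0 each). Lmna encodes lamin A and C of the nuclear envelope, Camta1 a calmodulin-binding transcription activator, Cyp46a1 cholesterol 24-hydroxylase, and Bcl11b a zinc finger repressor of T cell development. The first 2 were multi-copy, with 24 and 11 other copies, and the other 8 had none. At Bcl11b the nearest asynchronous center was 2059 bp away, and at Camta1 it was 115929 bp away.

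**Figure D4:**
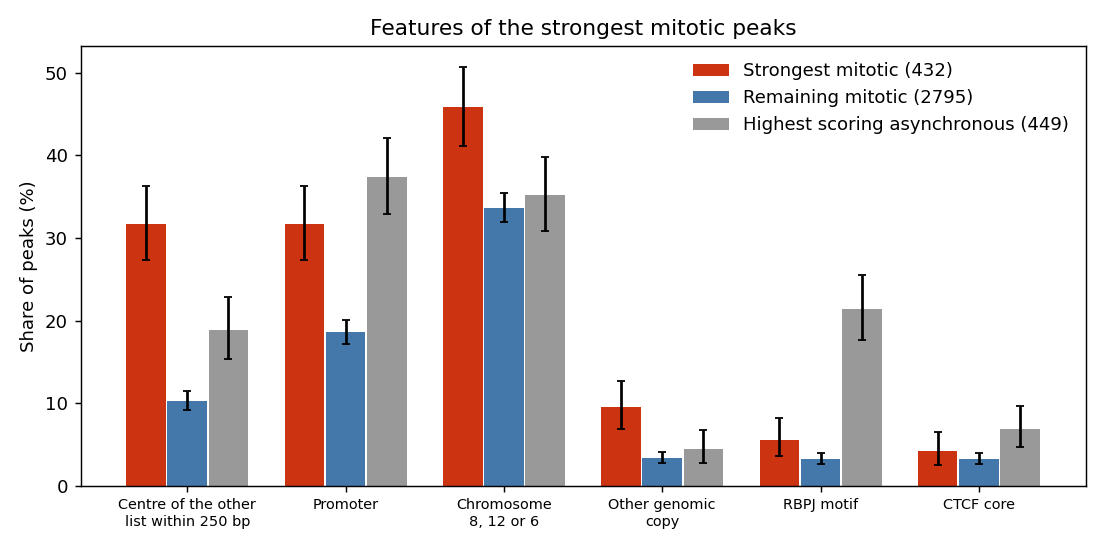
Share of peaks with each feature for the strongest mitotic, the remaining mitotic and the 449 highest scoring asynchronous peaks, with exact 95% intervals. The strongest mitotic peaks stand at 31.7% for a center of the other list within 250 bp, and at 5.56% for the RBPJ motif against 21.4% of the highest scoring asynchronous peaks.

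Of the strongest mitotic peaks, 198 or 45.8% (41.1 to 50.7) lay on chromosomes 8, 12 and 6, which hold 15.3% of the length of the chromosomes with members and 35.3% of all mitotic peaks. The share in the remaining peaks was 33.6% (31.9 to 35.4), a difference of 12.2 points (7.23 to 17.2). Chromosomes 8, 12 and 6 were known from earlier results to hold many of these peaks, so their shares and differences are a description. Asynchronous peaks of high score were also more often on these chromosomes, with 35.2% (30.8 to 39.8) of the 449 highest scoring against 21.2% of all asynchronous peaks, and on chromosome 12 with 12.9% against 5.21%. The share of the strongest mitotic peaks was 10.6 points above that of the 449 (4.16 to 17.0). The strongest mitotic peaks numbered 0.492 per Mb on these chromosomes and 0.105 per Mb on the others. Most of the difference was on chromosome 12, with 77 peaks or 17.8% (14.3 to 21.8) against 8.55% (7.54 to 9.65) of the remaining peaks, 9.27 points apart (5.78 to 13.3). On chromosome 8 the shares were 18.1% and 16.1%, with a difference of 1.99 points (-1.63 to 6.11), and on chromosome 6 they were 9.95% and 9.02%, with 0.938 points (-1.78 to 4.28). Shares were lower than in the remaining peaks on chromosome 9, which had 4 peaks or 0.926% against 3.65%, and on chromosome 2, which had 7 peaks or 1.62% against 4.26%. Chromosome X held 7 of the strongest and 17 of the remaining peaks. The input libraries, which would show the number of copies of each chromosome in F9 cells, were not analysed here.

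**Figure D5:**
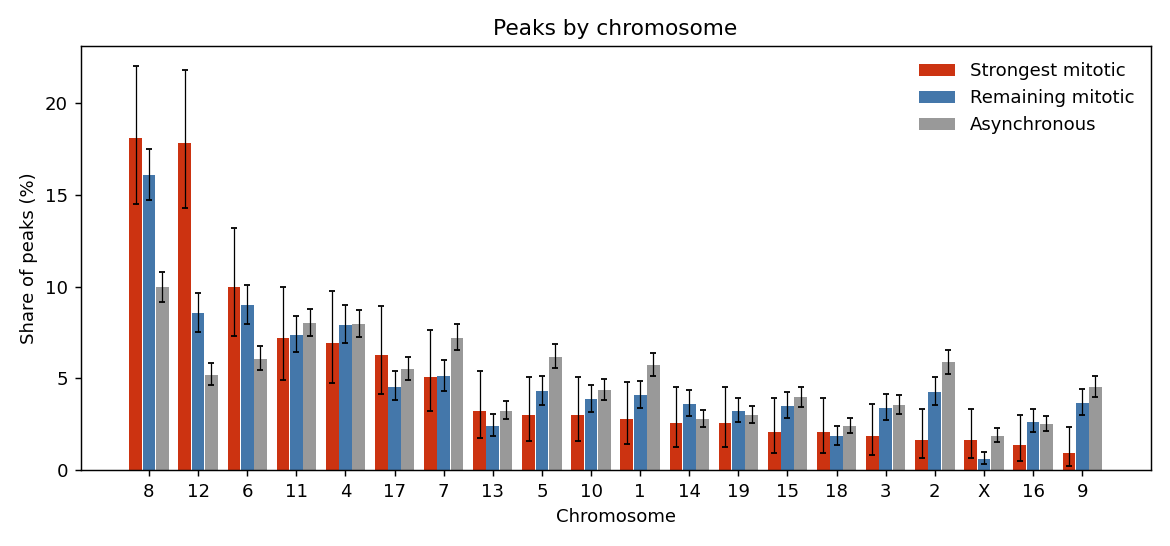
Share of the strongest mitotic, remaining mitotic and asynchronous peaks on each chromosome, with exact 95% intervals, ordered by the strongest mitotic peaks. Chromosome 12 holds 17.8% of the strongest against 8.55% of the remaining mitotic peaks.

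On these chromosomes the peaks lay toward the end far from the centromere. On chromosome 12, 72 of 77 were in the distal part beyond the midpoint, or 93.5% (85.5 to 97.9), as were 93.3% of the remaining mitotic and 87.5% of the asynchronous peaks. The distal share was 82.1% (71.7 to 89.8) on chromosome 8, against 71.5% of the remaining mitotic and 71.8% of the asynchronous peaks. On chromosome 6 it was 90.7% (77.9 to 97.4), against 92.1% and 84.8%. Of 539 windows of 5 Mb, 8 held 9 or more of the strongest peaks, a limit chosen after the counts were seen. They held 25.9% of the strongest, 10.1% of the remaining mitotic and 7.43% of the asynchronous peaks. Because the windows were picked by their counts of the strongest peaks, a higher share of those was built in. No conclusion is drawn from these shares.

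The densest window was chromosome 12 from 110 to 115 Mb, with 27 of the strongest peaks among 65 mitotic peaks and 60 asynchronous peaks. None of the 27 was multi-copy, 9 had an asynchronous center within 250 bp, and 6 were at promoters. It contains the imprinted domain with the noncoding RNA gene Meg3, whose promoter held a peak of 13.8, and Mir370, with a promoter peak of 15.3. The nearest asynchronous centers were 105404 bp and 181809 bp away. Farther along lay 3 peaks nearest Ppp2r5c, a regulatory subunit of protein phosphatase 2A (21.1, 19.7 and 13.1), a promoter peak of Hsp90aa1, which encodes a heat shock chaperone (19.7), and a peak 9767 bp upstream of Dync1h1, the dynein heavy chain (18.9). The Hsp90aa1 and Dync1h1 peaks had asynchronous centers 102 bp and 18 bp away.

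The window of chromosome 12 from 85 to 90 Mb held 19 of the strongest peaks, 3 of them nearest Fos at distances of 18067 to 47640 bp from its start, with scores of 14.6, 13.8 and 13.1. None of the 3 had an asynchronous center within 9 kb. A peak of 16.0 lay at a termination site of Esrrb, an orphan nuclear receptor of pluripotent cells, 14988 bp from the nearest of its starts. On chromosome 14, 9 peaks lay between 98567024 and 99813431, nearest to Dach1, Pibf1, Klf5, 6720463M24Rik and small RNA genes. The highest, in an intron of Dach1, scored 16.7, and its nearest asynchronous center was 422078 bp away.

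The 5 highest scoring peaks of chromosome 6 were those nearest Pde6h (21.8), Ptms, Hist4h4 and Casc1 (19.7 each) and Foxj2 (18.9). Those of chromosome 12 were nearest Gm16708 (21.8), Ppp2r5c, Hsp90aa1 and Dync1h1. Those of chromosome 8 were the Gipc1 peak and 4 multi-copy peaks, nearest 4930467E23Rik, 2610005L07Rik, Gm6483 and 6820431F20Rik. The peaks on the 3 chromosomes were less often at promoters than those on the others, in 22.7% against 39.3%, a difference of -16.6 points (-24.9 to -7.85). The difference in the share with an asynchronous center within 250 bp, -6.33 points, had an interval that included 0 (-14.9 to 2.49).

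Another of the strongest peaks lay within 10 kb of 37 peaks, or 8.56% (6.10 to 11.6), in 18 loci. The only locus with 3 such peaks was St6galnac1, a sialyltransferase gene on chromosome 11, between 116626106 and 116636384. Its peaks scored 18.9, 18.2 and 14.6, and none had an asynchronous center within 250 bp. Pairs were found at the histone demethylase gene Kdm6b (16.7 and 13.1), the imprinted gene Peg3 (15.3 and 13.1), Tpi1 (13.8 and 13.8), Aars (17.5 and 13.8) and Dync1h1 (18.9 and 13.8), among others.

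The RBPJ motif, TTCCCACA or TTCCCACG on either strand, was present in 24 of the strongest peaks, or 5.56% (3.59 to 8.15), against 3.53% of all mitotic peaks and 3.22% (2.60 to 3.94) of the remaining peaks. The difference was 2.34 points (0.402 to 4.98). With a score minimum of 15 it was 1.89 points, with an interval that included 0 (-0.933 to 7.20). Windows of the same width centered on all transcript starts held it in 1.60%, and windows 2 kb to either side of the strongest peaks in 2.31%. None of the 31 peaks of 20 and above held it, with an exact interval of 0 to 11.2%. Only TTCCCACA and TTCCCACG were counted, so other variants of the motif were missed. With the shorter TTCCCA the shares of the strongest and remaining peaks were 26.4% and 24.9%, and the interval of the difference included 0 (-2.81 to 6.08). TTCCCA was in 6 of the 31 peaks of 20 and above, or 19.4% (7.45 to 37.5). In the 449 highest scoring asynchronous peaks the full motif was found in 21.4% (17.7 to 25.5).

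The motif was found more often where asynchronous cells also had a peak. It was in 16 of the 137 strongest peaks with an asynchronous center within 250 bp, or 11.7% (6.82 to 18.3), and in 8 of the other 295, or 2.71% (1.18 to 5.27), 8.97 points apart (3.92 to 15.6). At these 16 sites the motif lay a median of 33.0 bp from the mitotic center and 15.5 bp from the asynchronous center, and it was closer to the asynchronous center in 11 and to the mitotic center in 5. The asynchronous intervals are 173 bp wide and the mitotic ones 203 bp.

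The highest scoring peaks with the motif, shown above, were at the promoters of Casc1 (19.7), Rara, a retinoic acid receptor gene (18.9), Rpl36a, a ribosomal protein gene (18.2), Ankrd9 (17.5) and Atp5k, which encodes a subunit of ATP synthase (15.3). At Rpl36a the motif lay 95.5 bp below the mitotic center and 10.5 bp below the asynchronous center (score 37.1). At Casc1 and Rara it was 28.5 bp and 31.5 bp above the mitotic center and 16.5 bp and 19.5 bp above the asynchronous one. At Ankrd9 it was 29.5 bp above the mitotic center, and the nearest asynchronous center was 12283 bp away. The next were an intron near 1110003O08Rik (15.3), Sept9, a septin gene (15.3), Hdgf, 4931428F04Rik and 2400003C14Rik (14.6 each). Sept9, Hdgf and 2400003C14Rik had asynchronous centers within 32 bp.

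The CTCF core was present in 18 of the strongest peaks, or 4.17% (2.49 to 6.51), against 3.41% of all mitotic peaks. The remaining peaks had it in 3.29%, and the difference of 0.875 points had an interval that included 0 (-0.806 to 3.27). Windows at transcript starts held it in 2.64%, and windows 2 kb to either side of the strongest peaks in 1.74%. As with the RBPJ motif, the share was higher in peaks with an asynchronous center within 250 bp, with 13 of 137 or 9.49% (5.15 to 15.7), than in the others, with 5 of 295 or 1.69% (0.553 to 3.91), 7.79 points apart (3.35 to 13.9). Both motifs were held by 4 peaks, at Atp5k, Sept9, Klk10 and Msrb3, all with an asynchronous center within 32 bp. These 4 were chosen after their values were seen.

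The longer form of the CTCF motif given above, searched on either strand and added after the data were seen, was present in 38 of the strongest peaks, or 8.80% (6.30 to 11.9), against 5.18% of all mitotic peaks. The remaining peaks had it in 4.62% (3.87 to 5.46), and the difference of 4.18 points had an interval above 0 (1.71 to 7.31), unlike that of the core. Windows at transcript starts held it in 1.58%, and windows 2 kb to either side of the strongest peaks in 3.01%. It was in 22 of the 137 peaks with an asynchronous center within 250 bp, or 16.1% (10.3 to 23.3), and in 16 of the other 295, or 5.42% (3.13 to 8.66). The highest scoring peak with it was that of Gipc1. Of the 38 peaks, 8 also held the core and 4 the RBPJ motif. Promoter peaks held it in 3.65% and the other strongest peaks in 11.2%, a difference of -7.54 points (-12.1 to -1.98). The 449 highest scoring asynchronous peaks held it in 9.13% (6.63 to 12.2).

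A strongest mitotic peak lay within 10 kb of a start of 1.57% of all 22380 protein-coding genes, any mitotic peak of 9.14%, and any asynchronous peak of 16.9%. Of 35 genes of the Notch pathway, 4 had a strongest peak in that range, and 9 had any mitotic and 14, or 40.0%, any asynchronous peak. Hes1, a repressor and Notch target, scored 13.1 at 26 bp upstream of its start with an asynchronous center 23 bp away (score 26.6), and is among the peaks just inside the minimum. Hes5 scored 13.1 at 779 bp upstream, and its nearest asynchronous center was 13622 bp away. Hes7, of the somite clock, scored 13.8 at 3157 bp downstream. Maml1, a Mastermind coactivator, scored 13.1 at 226 bp upstream, with a CTCF core and an asynchronous center no nearer than 78955 bp. Of the 4, Hes1 had the RBPJ motif.

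Of 20 pluripotency genes 2 were near a strongest peak, namely Klf5 (13.8, at 2904 bp) and Utf1 (13.1, at 6314 bp). Any mitotic peak was near 7 of the 20, or 35.0%, and any asynchronous peak near 13, or 65.0%. The shares of all protein-coding genes were 9.14% and 16.9%. Of 12 immediate early genes 3 were near a strongest peak, namely Ier2 (14.6), Fosb (13.1) and Junb (13.1), none with an asynchronous center within 2 kb. Of 5 annotated genes of the cleavage-stage embryo, Dux was. The list of symbols beginning with Rpl or Rps and a number, with Rplp0 to Rplp2 and Rpsa, had 247 entries, many of them pseudogenes, and 6 were near a strongest peak. They included Rpl36a, whose peak is described above, and Rpl3l (13.8, at 3750 bp), whose nearest asynchronous center was 16256 bp away. Of 80 histone genes 5 were near, through 2 peaks, of which that of Hist4h4 scored 19.7 at 97 bp upstream of its start and the other, of 16.0, lay over 6 kb from 3 genes of the Hist1 cluster. Any asynchronous peak was near 47 of the 80, or 58.8%, and many of these genes lie side by side in clusters. Of 102 genes of mitochondrial import and ribosomes 4 were near, namely Timm13, Tomm20 (16.0, with an asynchronous center 1 bp away), Mrps31 (16.0) and Mrpl24 (14.6, at 8768 bp and within Hdgf). All 3 annotated Pisd genes were. These lists were drawn up with earlier results of these data known, and their shares are a description.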

How the data were processed

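Anti-RBPJ ChIP-seq peak lists of asynchronous and mitotic F9 cells were read, 1 per population. The authors aligned reads uniquely with Bowtie 0.12.7 to mm9, with at most 2 mismatches, found peaks with HOMER over the input of the same population (false discovery rate 0.001, Poisson p 0.0001) and applied a minimum of 1 RPM. The deposited score is the authors' own measure, on a scale of reads per 10 M as far as its steps show, and it ranked peaks within a list, with ties in the order of the list. Read depth was not given in the lists, and peak numbers set the precision of every share.

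Sequences and transcript starts came from NCBIM37, the same build as mm9, and GENCODE M1, with peak centers at the middle of the interval. The distal promoter class began 10 kb before a start and ended 1 kb after it. Copies were searched with blastn 2.17.0 (word size 28, low-complexity masking), in which 7 of the 432 peaks did not find their own sequence, and 36-base windows were counted exactly. Shares have exact Clopper-Pearson 95% intervals and differences have Newcombe 95% intervals, from Python 3.11.15, pandas 2.3.3, numpy 2.4.6 and scipy 1.17.1. The functions were tested on simulated data.

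The members, chromosomes 8, 12 and 6 and the gene lists were chosen with earlier results of these data known. Named were the 20 highest peaks, the 10 highest with an asynchronous partner, at promoters without one and with an RBPJ motif, the 5 highest on chromosomes 8, 12 and 6, loci of 3 peaks, annotated pseudogene or ribosomal RNA overlaps, and peaks within 10 kb of listed genes. Other named peaks, such as those of dense windows and of pairs within 10 kb, were examples picked outside these rules. Names of repeats came from the annotation table published with the study, which was used for names alone. Some loci are not reported here. Second immunoprecipitations and inputs were not used here. The longer CTCF motif was searched after the data were seen. Alternatives changed the score minimum, copy, promoter, motif and distance definitions.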

Additional observations from a re-analysis of the deposited data

How the results depend on the processing

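No paired analysis was possible because each population had 1 peak list, and shares of 1 list come from no test. Of 38 alternatives tried, 21 stayed within the 95% interval of the share as reported, and 17 did not.

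With a score minimum of 15, the share with an asynchronous center within 250 bp was 38.2%, the multi-copy share 18.3% and the share with another such peak within 10 kb 4.58%. With a minimum of 20, which left 31 peaks, the multi-copy share was 51.6%, the share on chromosomes 8, 12 and 6 was 25.8%, the promoter share 16.1%, the shares with an RBPJ motif and a CTCF core 0, and the share with another peak within 10 kb 12.9%. At that minimum the shares on these chromosomes and at promoters were below those of the peaks under it, by differences of -9.55 points (-21.8 to 7.97) and -4.27 points (-13.4 to 12.3). Centers within 100 bp gave 23.4%. Copies at 95% identity over 95% of the peak gave 6.48%, and 36-base windows found elsewhere for at least 50% of a peak gave 4.86%. Promoters from 2 kb upstream to 500 bp downstream held 38.2%, and those of protein-coding transcripts 26.6%. TTCCCA alone was in 26.4%, the longer CTCF motif, added after the data were seen, was in 8.80%, and 32.2% had another such peak within 100 kb. The causes of these changes were not tested, beyond the fewer peaks and the wider or narrower definitions themselves. Leaving out multi-copy peaks or merging peaks within 10 kb, where run, kept the shares with an asynchronous center, on the 3 chromosomes, at promoters, with either motif, with multi-copy sequence and with another peak within 10 kb inside their intervals. The gap, pseudogene and intergenic results changed without multi-copy peaks, as given above.

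The highest peaks outside the list had 17 reads and the lowest inside it 18. Counting intervals leave out variation between immunoprecipitations, since 1 of each population was used.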
